A study of Mus musculus with 6 samples.

Results

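The molecular chaperones of the HSP70, HSP90, DNAJ and chaperonin families were described in cultured mouse pre-B cells that BCR-ABL1, the tyrosine kinase fusion behind a form of acute lymphoblastic leukaemia, had transformed. A gene was a member if its probe set carried exactly 1 gene symbol and that symbol met a rule. The symbol began with Hspa, Hsp90, Hsph, Dnaja, Dnajb, Dnajc or Cct, or was Hspd1, Hspe1, Hsf1, Tcp1 or Trap1. This gave 73 genes, measured by 95 probe sets, of 19938 named genes on the array. Hsf1 had no probe set with a single symbol and was not analysed here. All cells were of strain C57BL/6 and carried floxed alleles of Inpp5d, which encodes the lipid phosphatase SHIP1. On 3 arrays the cells had been transduced with PMIP-CRE-ERT2, a tamoxifen-activated Cre recombinase, and on 3 arrays with PMIP-ERT2, the tamoxifen-binding domain alone. They are called the CRE and the ERT arrays after their labels throughout. Both groups were kept in 0.5 µM 4OH-Tamoxifen for 2 days before the RNA of the puromycin-resistant cells was extracted. No arm had Cre without floxed alleles, so effects of Cre and of its floxed target cannot be told apart. Whether replicate arrays stem from different cultures is not stated, and the p-values therefore cover only the spread among these 6 samples, which may be technical.

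Chaperones bind unfolded proteins and help them to reach or regain their shape. HSP70 proteins clamp onto exposed hydrophobic stretches in cycles driven by ATP. J-proteins of the DNAJ family deliver clients and trigger ATP hydrolysis, and nucleotide exchange factors such as the HSP110 proteins reset the cycle. HSP90 acts later, on kinases and other signalling proteins close to their final shape, and BCR-ABL1 is itself a known HSP90 client. Chaperonins enclose a client in a ring-shaped chamber: HSP60 with its lid HSP10 in mitochondria, and TRiC, built of the CCT subunits, in the cytosol. Many cytosolic chaperone genes are induced by heat shock factor through heat shock elements, and those of the endoplasmic reticulum (ER) by the unfolded protein response.

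Values were deposited on the log2 scale, and every difference below is the mean of the CRE arrays minus the mean of the ERT arrays on that scale. Inpp5d, the targeted gene, had log2 values of 13.20, 13.21 and 13.17 in ERT arrays 1, 2 and 3 and 13.37, 13.34 and 13.34 in CRE arrays 1, 2 and 3. It was thus not lower in the arrays labelled CRE (difference 0.16, limma adjusted p = 0.0545), and its single probe set checks nothing about recombination if it lies outside the deleted exons, so directions are those of the labelled groups only. Of the CRE arrays, array 3 stood closest to the controls across all probe sets, with r = 0.9967 to ERT array 3 and 0.9950 and 0.9938 to CRE arrays 2 and 1. The 8 B lineage markers on the array had mean log2 values from 10.18 to 14.33, and 0 of them passed the test. Of 6 myeloid markers, 3 lay below the filter on dim genes and Lyz2 was higher in the CRE arrays (difference 0.79, adjusted p = 0.00588). The mean over the myeloid list ran from 7.62 to 7.67 in the ERT arrays and from 7.83 to 7.96 in the CRE arrays. That over the 5 T and NK markers ran from 7.09 to 7.22 and from 7.21 to 7.42, that over 2 erythroid markers from 7.69 to 7.77 and from 7.76 to 7.88, and that over 4 stromal markers from 9.15 to 9.20 and from 9.28 to 9.40. Of the T and NK, erythroid and stromal markers tested, 0 passed. With all genes tested divided by level into 4 bins, the median difference was 0.12 in the dimmest bin and 0.064 in the next. Whether the marker shifts go beyond this drift was not tested. The part of the marker shifts in the chaperone results was not tested. In bulk RNA, a change in the number of cells of a type and a change in RNA per cell cannot be told apart.

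Of the 73 chaperone genes, 66 passed the filter on dim genes and were tested. The other 7 (Cct6b, Cct8l1, Dnajb3, Dnajb7, Dnajc5b, Dnajc5g and Hspa12a) had mean log2 values from 5.88 to 7.24. Among the members tested, 1 rose and 4 fell in the CRE arrays at a limma adjusted p under 0.05, and 61 did not pass. After quantile normalization or loess the split was 2 higher and 4 lower, and after median centring 2 higher and 18 lower. Of all genes tested, 6.65%, 7.83% and 20.2% were called after quantile normalization, loess and median centring. On the deposited values, 7.62% of all 14953 genes tested were called (3.5% higher and 4.13% lower), against 7.58% of the members. The share of chaperones called was thus close to the background. None of the members called changed by 2-fold or more. The groups did not overlap in 33 members, 25 lower and 8 higher in the CRE arrays, and 38.5% of all genes tested did not overlap, 17.7% lower and 20.7% higher. At an unadjusted p under 0.05, 17 members were lower and 7 higher, 36.4% of those tested, against 33.4% of all genes (14.4% lower and 19% higher). Differences were small throughout: 36 of 66 members differed by under 0.1 on the log2 scale, and 4 by over 0.3. By sign alone 44 members were lower and 22 higher, with a median difference of -0.057, where the median over all genes tested was 0.026 and 43.4% of them were lower. The third and the brightest of 4 bins of level held 15 and 32 of the members. There 67.4% and 59.3% of all genes were lower by sign, and 29.7% and 26.5% were lower without overlap. The direction of the median over the members held under each scaling tried.

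**Figure D1:**
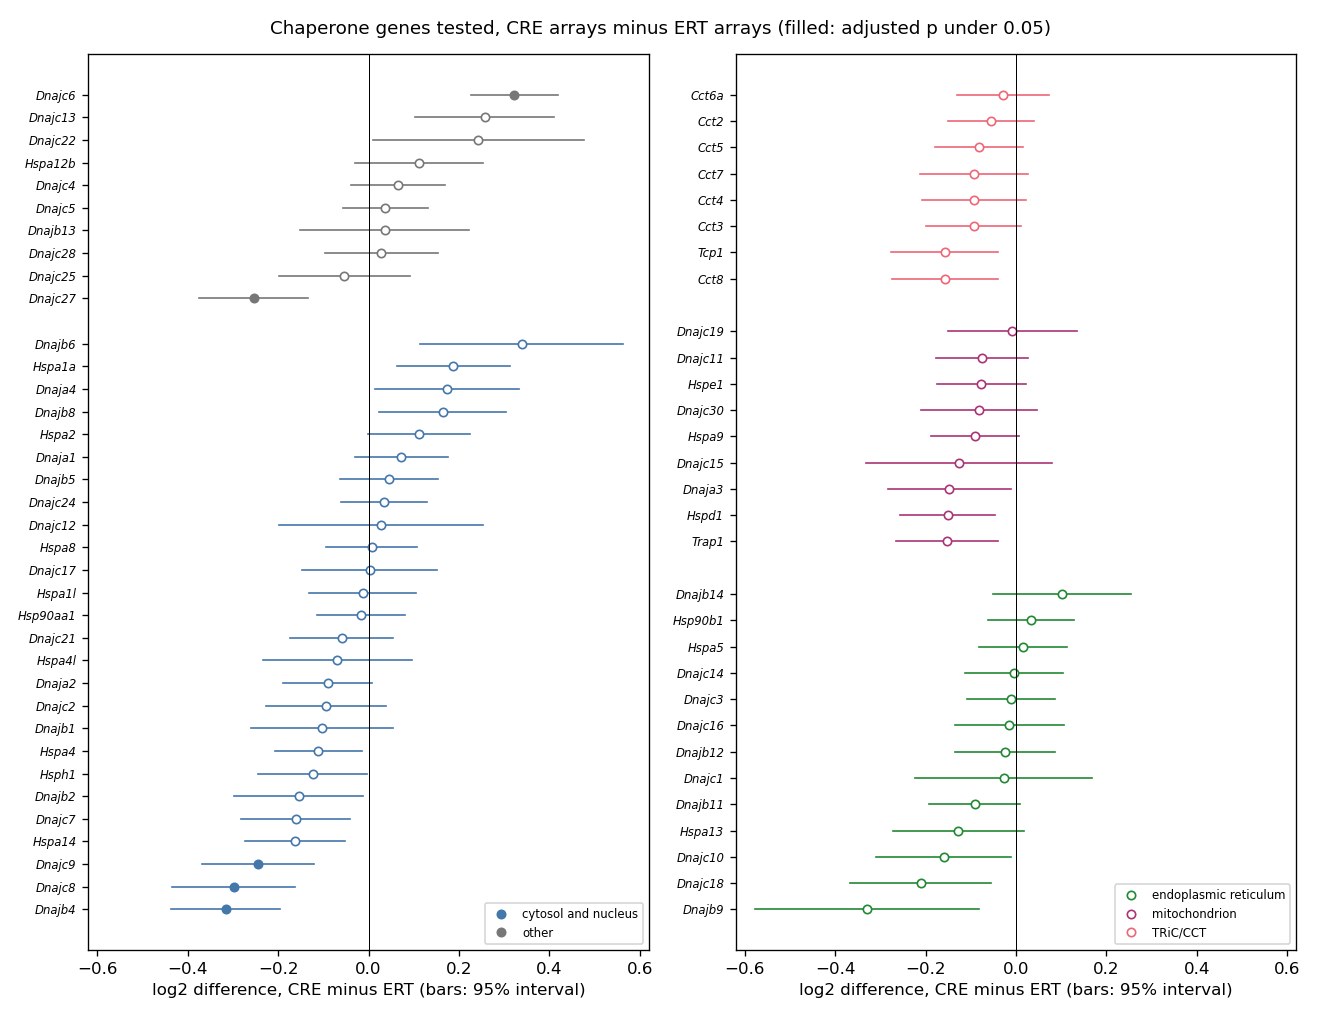
Difference in log2 value between CRE and ERT arrays (x axis) for each of the 66 chaperone genes tested, with its 95% interval, ordered within compartments; filled points passed limma's test. Dnajb4, Dnajc8, Dnajc9 and Dnajc27 are the filled points to the left of 0 and Dnajc6 the filled point to the right, and all mitochondrial and TRiC/CCT members lie left of 0.

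All 5 genes called encode J-proteins, the family that supplied 41 of the 66 members tested. Of those 41, 12.2% were called, against 7.62% of all genes tested, and whether the families differ was not tested. Dnajb4, a class B J-protein of the cytosol that works with HSP70, had log2 values of 9.81, 9.85 and 9.76 in the ERT arrays and 9.53, 9.41 and 9.53 in the CRE arrays. The groups did not overlap, and Dnajb4 fell by 0.32 ± 0.053 (SE) on the log2 scale (adjusted p = 0.0180), 1.245-fold lower. Dnajc8, which encodes a nuclear J-protein found with the spliceosome, had values of 10.72, 10.69 and 10.62 in the ERT arrays and 10.43, 10.27 and 10.43 in the CRE arrays. Every CRE array lay below every ERT array, a fall of 0.30 ± 0.059 (adjusted p = 0.0291). Dnajc9, a J-protein that also chaperones histones, had values of 11.29, 11.14 and 11.20 in the ERT arrays and 10.97, 10.92 and 11.01 in the CRE arrays. It fell by 0.24 ± 0.054 (adjusted p = 0.0375), again without overlap. Dnajc27, which encodes a Rab-like GTPase with a J domain, had values of 9.73, 9.76 and 9.74 in the ERT arrays and 9.53, 9.39 and 9.54 in the CRE arrays. Its fall was 0.25 ± 0.053 (adjusted p = 0.0322), with an SD of 0.0156 among the ERT arrays and 0.0826 among the CRE arrays.

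Dnajc6 was the only member called higher. It encodes auxilin, which recruits HSC70 to strip clathrin from coated vesicles and is best known from neurons. Its log2 values were 8.23, 8.25 and 8.26 in the ERT arrays and 8.56, 8.59 and 8.56 in the CRE arrays. Both groups were tight and far apart, giving a rise of 0.32 ± 0.042 (SE, adjusted p = 0.00660), or 1.25-fold. Its level was near the middle of the array, with 48.1% of all named genes dimmer. Leaving out single arrays ended most of these calls: Dnajc6 kept its call in 5 of 6 such fits (adjusted p = 0.0542 without ERT array 1), Dnajb4 in 3, Dnajc8 in 2 and Dnajc9 and Dnajc27 in 1 each. Without CRE array 3, 3 members were called higher and 7 lower, and 20.3% of all genes tested were called. Without ERT array 1, 0 members were called in either direction, and 0.776% of all genes were. Without ERT array 2 or CRE array 1, 0 members were called lower, and 1.3% and 0.91% of all genes were called in either direction.

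**Figure D2:**
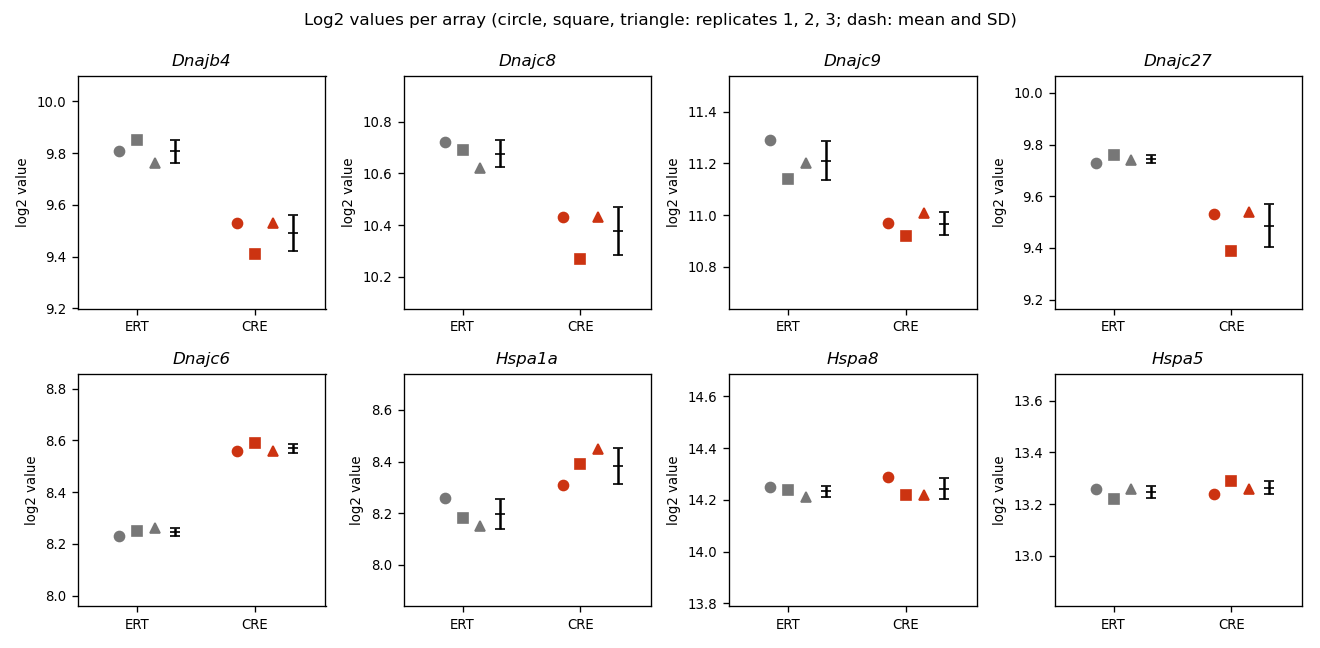
Log2 value (y axis) on each ERT (grey) and CRE (red) array for 8 chaperone genes, with the mean and SD of each group beside the points. Dnajb4, Dnajc8, Dnajc9 and Dnajc27 are lower and Dnajc6 higher in every CRE array, the Hspa1a groups do not overlap but did not pass the test, and Hspa8 and Hspa5 overlap; all panels span the same log2 range.

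Hspa8 and Hsp90aa1 were at nearly the same level in both groups; Hsp90ab1, the constitutive cytosolic HSP90 gene, was not analysed here. Hspa8, which encodes the constitutive HSC70, was the brightest member, with values of 14.25, 14.24 and 14.21 in the ERT arrays and 14.29, 14.22 and 14.22 in the CRE arrays. Its difference of 0.0066 had a 95% interval from -0.094 to 0.11, and its sign turned after quantile normalization, loess and median centring. Hsp90aa1, the inducible HSP90 of the cytosol, had values of 13.49, 13.47 and 13.50 in the ERT arrays and 13.48, 13.44 and 13.49 in the CRE arrays. The interval of its difference ran from -0.11 to 0.080, and the sign turned after quantile normalization. The 3 probe sets of Hspa8 ran from 0.0066 to 0.037 and the 3 of Hsp90aa1 from -0.026 to -0.017. A pair of dimmer probe sets that the annotation shares between Hspa8 and the small nucleolar RNAs in its introns had -0.10 and -0.097. Hspa1a, the classical stress-inducible HSP70, was dim at 8.26, 8.18 and 8.15 in the ERT arrays and 8.31, 8.39 and 8.45 in the CRE arrays. Every CRE array lay above every ERT array, but the difference of 0.19 did not pass (adjusted p = 0.0659). A further probe set that the annotation gives to both Hspa1a and its near-identical neighbour Hspa1b differed by 0.20, also without overlap. The level of either gene alone is uncertain, since probes may bind both transcripts.

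The HSP110 genes, whose products exchange the nucleotide of HSP70, were lower by sign in 3 of 3 cases, and limma called 0 of them. By sign 43.4% of all genes tested were lower. The share was 59.3% in the brightest of 4 bins of level, with Hspa4 and Hsph1, and 34.6% in the bin of Hspa4l. At an unadjusted p under 0.05, 2 of the HSP110 genes were lower, where 14.4% of all genes tested were. Hspa4 had values of 12.87, 12.89 and 12.88 in the ERT arrays and 12.76, 12.80 and 12.74 in the CRE arrays, without overlap (difference -0.11, adjusted p = 0.113). Hsph1 had a difference of -0.12 (adjusted p = 0.143) and Hspa4l one of -0.069 (0.508), both with overlapping groups. Hspa14, which encodes a ribosome-associated HSP70, had -0.16 (adjusted p = 0.0698), and Dnajc2, its J-protein partner at the ribosome, -0.093 (0.273). The testis-enriched Hspa2 and Hspa1l had 0.11 and -0.013, neither of which passed.

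Cytosolic J-proteins of classes A and B moved in both directions. Dnajb1, the HSP40 that is induced by heat together with HSP70, had values of 10.43, 10.46 and 10.37 in the ERT arrays and 10.25, 10.23 and 10.47 in the CRE arrays. CRE array 3 lay above all ERT arrays while the other two lay below them; the difference was -0.10 (adjusted p = 0.305) with all arrays and -0.18 (0.0477) without CRE array 3. Dnaja1, a farnesylated class A partner of HSC70, had a difference of 0.072 in its brighter probe set and -0.19 in its other probe set, and its sign turned when both were averaged and after median centring. A further probe set shared in the annotation with Mir207 had 0.22. Dnaja2 had -0.090 and Dnaja4 0.17, with adjusted p = 0.173 and 0.125. Dnajb2 (-0.15) and Dnajc7 (-0.16), the latter a TPR protein that binds both HSP70 and HSP90, did not pass, although the CRE arrays of each lay below the ERT arrays. Among further cytosolic and nuclear members, Dnajb8 had 0.16, Dnajb5 0.046, Dnajc12 0.029, Dnajc17 0.0022, Dnajc21 -0.059 and Dnajc24 0.034, and none passed. Over the 26 cytosolic and nuclear members tested, 0 were called higher, 3 lower and 23 did not pass, and the median difference was -0.038. Those called lower were 11.5% of the compartment, against 4.13% of all genes tested. The groups did not overlap in 13 of them, 8 lower (30.8%) and 5 higher (19.2%), against 17.7% and 20.7% of all genes tested. From the dimmest to the brightest of 4 bins of level, 1.85%, 12.9%, 29.7% and 26.5% of all genes were lower without overlap.

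Dnajb6, a suppressor of protein aggregation, depended on the probe set. Its probe set with a single symbol was dim, with values of 8.32, 8.18 and 8.37 in the ERT arrays and 8.85, 8.60 and 8.45 in the CRE arrays, the largest positive difference of any member tested at 0.34 ± 0.098 (SE), which did not pass (adjusted p = 0.0661). The annotation gives 4 further probe sets to Dnajb6 together with Gm4247, and these were bright, from 12.58 to 12.93 over all arrays. They differed by -0.14, -0.14, -0.13 and -0.12, opposite in sign to the single-symbol probe set. In all, 10 probe sets carried a member's symbol beside another gene's, and none of them entered the counts given here.

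In the ER, limma called 0 of 13 members in either direction, and 3 were lower at an unadjusted p under 0.05, where 14.4% of all genes tested were. Without overlap 4 were lower (30.8%), against 17.7% of all genes tested. In the third and the brightest of 4 bins of level, which hold most ER members, this share was 29.7% and 26.5%. Hspa5, which encodes BiP, the ER form of HSP70 and the standard readout of the unfolded protein response, had values of 13.26, 13.22 and 13.26 in the ERT arrays and 13.24, 13.29 and 13.26 in the CRE arrays. The groups overlapped, and the 95% interval of the difference ran from -0.082 to 0.11. Hsp90b1, which encodes GRP94, the ER form of HSP90, had values of 13.14, 13.19 and 13.15 in the ERT arrays and 13.21, 13.19 and 13.19 in the CRE arrays, with an interval from -0.062 to 0.13. The ER J-protein Dnajc3 (P58IPK), a co-chaperone of BiP, had a difference of -0.012, with an interval from -0.11 to 0.086. The signs of these small differences turned under other scalings: those of Hspa5 and Hsp90b1 after median centring, and that of Dnajc3 after quantile normalization and loess.

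Hspa5, Hsp90b1 and Dnajc3 are grouped here because their promoter windows held a match to the ER stress element. Promoter windows from 250 bases before to 50 bases after the annotated start were available from RefSeq (build GRCm38.p6) for 60 of the 73 genes, in 78 windows. The ER stress element was searched on both strands as CCAAT and CCACG with any 9 bases between them. It was present in the windows of these 3 genes and no other member with a window, and in 0.119% of all 32851 windows. The windows are shown because these genes are the ones that the element marks; capitals mark the matches, and all are printed 5′ to 3′ on the strand of the gene.
Hspa5 (chr2:34771840-34772139, plus strand): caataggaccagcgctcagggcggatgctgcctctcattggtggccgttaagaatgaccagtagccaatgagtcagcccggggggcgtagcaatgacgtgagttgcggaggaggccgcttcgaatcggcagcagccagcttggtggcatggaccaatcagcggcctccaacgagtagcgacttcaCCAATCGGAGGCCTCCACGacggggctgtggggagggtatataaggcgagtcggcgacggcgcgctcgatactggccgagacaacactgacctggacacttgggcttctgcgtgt
Hsp90b1 (chr10:86705395-86705694, minus strand): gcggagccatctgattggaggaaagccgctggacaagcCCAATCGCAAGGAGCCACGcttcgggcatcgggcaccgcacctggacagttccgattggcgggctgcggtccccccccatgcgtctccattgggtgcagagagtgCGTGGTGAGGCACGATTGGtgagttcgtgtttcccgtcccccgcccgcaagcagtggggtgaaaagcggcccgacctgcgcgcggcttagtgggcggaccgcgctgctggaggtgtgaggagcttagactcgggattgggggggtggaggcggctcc
Dnajc3 (chr14:118937682-118937981, plus strand): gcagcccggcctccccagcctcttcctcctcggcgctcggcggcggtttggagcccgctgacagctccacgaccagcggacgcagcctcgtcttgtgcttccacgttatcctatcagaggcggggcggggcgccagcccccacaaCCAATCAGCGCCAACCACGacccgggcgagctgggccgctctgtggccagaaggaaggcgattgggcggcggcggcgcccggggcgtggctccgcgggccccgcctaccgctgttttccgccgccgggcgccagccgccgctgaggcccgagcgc
Hsp90b1 held 2 matches and Hspa5 and Dnajc3 held 1 each, at position -65 from the start in Hspa5 and -105 in Dnajc3. A match is a description of the letters, not a tested site. All 3 genes had 95% intervals that included 0.

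The remaining ER members spread further. Dnajb9, which encodes ERdj4 and is a target of the IRE1 and XBP1 branch of the unfolded protein response, had the largest negative difference of any member. Its values were 10.26, 10.33 and 10.10 in the ERT arrays and 9.96, 9.65 and 10.08 in the CRE arrays. No overlap was seen, but CRE array 2 lay well below CRE arrays 1 and 3, and the difference of -0.33 ± 0.11 (SE) did not pass (adjusted p = 0.0847; 0.0327 without CRE array 3). Dnajc18 (-0.21), of the ER membrane, and Dnajc10 (-0.16), which encodes the disulphide reductase ERdj5, were likewise lower without overlap and did not pass. Dnajb11 (ERdj3) had -0.091, also without overlap, and Hspa13 -0.13 with overlap. Dnajb12, Dnajc1, Dnajc14 and Dnajc16 lay between -0.028 and -0.0044, and Dnajb14 had 0.10, turning to -0.0009 after median centring. A pair of brighter probe sets that the annotation gives to Dnajb14 together with Pin4 had -0.22 and -0.17, opposite in sign and lower in every CRE array. The median over ER members was -0.024, and it turned to 0.0002 after quantile normalization and 0.010 after loess.

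Of the 9 mitochondrial members, 9 were lower by sign, limma called 0, and 3 were lower at an unadjusted p under 0.05, where 14.4% of all genes tested were. Without overlap 6 were lower, against 17.7% of all genes tested and against 29.7% and 26.5% in the third and the brightest of 4 bins of level, which hold these members. Hspd1 (HSP60) had values of 13.25, 13.31 and 13.22 in the ERT arrays and 13.11, 13.09 and 13.14 in the CRE arrays (difference -0.15, adjusted p = 0.0729). Its co-chaperonin Hspe1 (HSP10) had values of 13.28, 13.33 and 13.28 in the ERT arrays and 13.24, 13.20 and 13.23 in the CRE arrays (-0.077, adjusted p = 0.231). Both genes were lower in every CRE array and in both of their probe sets. Trap1, the mitochondrial HSP90, had values of 12.03, 12.07 and 11.98 in the ERT arrays and 11.89, 11.81 and 11.92 in the CRE arrays (-0.15, adjusted p = 0.0809). Hspa9 (mortalin), the HSP70 of the matrix and of protein import, had -0.090 (adjusted p = 0.173). Among the J-proteins, Dnaja3 (TID1), the matrix partner of mortalin, had -0.15, Dnajc11 -0.076 and Dnajc30 -0.081. Dnajc15 and Dnajc19, both of the import motor, had -0.13 and -0.0084 with overlapping groups. The median over the compartment was -0.090, and it stayed negative under each scaling, from -0.19 after median centring to -0.073 after loess.

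Hspd1 and Hspe1 lie head to head on chromosome 1. The RefSeq window of Hspe1 overlapped 1 of the 2 windows of Hspd1, on the opposite strand, by 285 bases, and the other by 4, so the pair has a promoter region in common. The heat shock element was searched on both strands as the 3 units TTC, GAA and TTC with any 2 bases between neighbours. It was present in windows of Hspd1, Hspe1, Hsph1 and Dnajb6 and in 0.603% of all windows, against 6 of the 78 windows of members (7.69%). The windows are shown for comparison with the values of these genes; capitals mark matches, which overlap each other in Hspe1.
Hspe1 (chr1:55087898-55088197, plus strand): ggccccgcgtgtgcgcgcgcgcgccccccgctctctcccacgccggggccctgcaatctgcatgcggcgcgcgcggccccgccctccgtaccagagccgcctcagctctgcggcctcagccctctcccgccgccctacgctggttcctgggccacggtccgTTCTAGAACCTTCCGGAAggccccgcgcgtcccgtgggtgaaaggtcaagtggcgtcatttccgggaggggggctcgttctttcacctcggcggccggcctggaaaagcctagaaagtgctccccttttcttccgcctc
Hsph1 (chr5:149636287-149636586, minus strand): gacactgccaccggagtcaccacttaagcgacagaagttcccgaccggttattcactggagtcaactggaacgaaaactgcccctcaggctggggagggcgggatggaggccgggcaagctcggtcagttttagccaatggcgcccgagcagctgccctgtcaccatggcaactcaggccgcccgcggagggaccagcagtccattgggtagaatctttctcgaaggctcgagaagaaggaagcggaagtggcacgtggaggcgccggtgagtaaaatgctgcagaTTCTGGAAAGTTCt
Dnajb6 (chr5:29735648-29735947, plus strand): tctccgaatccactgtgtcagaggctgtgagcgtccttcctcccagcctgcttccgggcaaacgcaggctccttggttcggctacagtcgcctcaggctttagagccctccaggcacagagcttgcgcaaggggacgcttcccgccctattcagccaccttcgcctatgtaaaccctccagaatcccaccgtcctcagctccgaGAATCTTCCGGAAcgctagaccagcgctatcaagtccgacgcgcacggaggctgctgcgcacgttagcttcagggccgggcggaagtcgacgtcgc
The probe sets used for the genes with this element had differences of -0.15 (Hspd1), -0.077 (Hspe1), -0.12 (Hsph1) and 0.34 (the single-symbol probe set of Dnajb6), and none passed. The only positive value is thus that of the dim Dnajb6 probe set. The brighter probe sets given to Dnajb6 together with Gm4247 ran from -0.14 to -0.12. The shorter core GAANNTTC is its own reverse complement and lies within the longer element. It was present in 13 of the 78 windows of members (16.7%), against 7.86% of all windows. Those windows belong to 11 members. Dnajc27 was the one gene called among them, and its window is printed for that reason with the core in capitals.
Dnajc27 (chr12:4082324-4082623, plus strand): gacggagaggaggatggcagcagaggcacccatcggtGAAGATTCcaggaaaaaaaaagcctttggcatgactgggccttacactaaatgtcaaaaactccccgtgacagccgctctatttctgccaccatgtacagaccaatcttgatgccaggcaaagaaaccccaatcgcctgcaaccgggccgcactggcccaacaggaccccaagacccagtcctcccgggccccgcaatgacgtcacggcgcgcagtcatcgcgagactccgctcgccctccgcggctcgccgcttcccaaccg
The others with the core were Cct2, Cct8l1, Dnaja1, Dnaja4, Dnajc5g and Hspa1a beside the 4 genes with the longer element. The 13 members without a window, Hspa8 and Hsp90aa1 among them, were not searched. For the rest, no match says only that these letters are not in the window.

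The CCT subunits, of which each TRiC ring holds a full set to fold actin, tubulin and other cytosolic clients, were bright and lay close together. All 8 tested were lower by sign, limma called 0, and 2 were lower at an unadjusted p under 0.05, where 14.4% of all genes tested were. Without overlap 6 were lower, against 17.7% of all genes tested and 26.5% of those in the brightest of 4 bins of level, which holds all 8. Tcp1, which encodes subunit alpha, had values of 12.97, 13.06 and 12.91 in the ERT arrays and 12.84, 12.79 and 12.84 in the CRE arrays (difference -0.16, adjusted p = 0.0847). Cct8, subunit theta, had values of 12.28, 12.42 and 12.32 in the ERT arrays and 12.17, 12.16 and 12.21 in the CRE arrays (-0.16, adjusted p = 0.0837). These were the largest differences among subunits. Cct3 (-0.094), Cct5 (-0.083), Cct7 (-0.093) and Cct2 (-0.055) were also lower without overlap, while Cct4 (-0.094) and Cct6a (-0.029) overlapped. In Cct7, the highest CRE and the lowest ERT array were both at 12.70 after rounding. The median over the subunits was -0.093 and stayed negative under each scaling, from -0.20 after median centring to -0.076 after loess. Per array, the median deviation of the subunits from their ERT means was -0.12, -0.10 and -0.050 in CRE arrays 1, 2 and 3, against -0.0099, 0.026 and -0.016 in the ERT arrays.

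**Figure D3:**
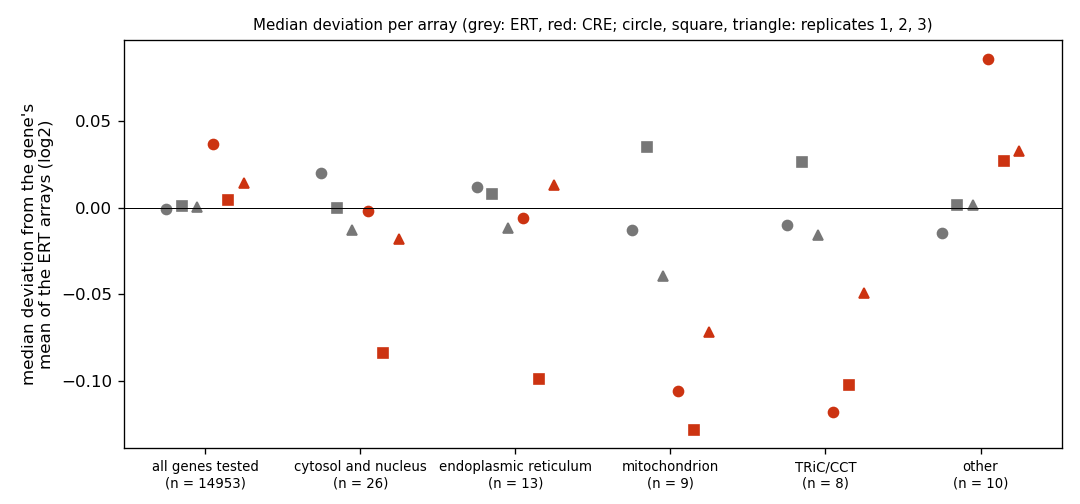
Median deviation of each compartment's genes from their mean in the ERT arrays (y axis, log2) on each array, beside that of all genes tested. The mitochondrial and TRiC/CCT medians lie below those of the ERT arrays in all 3 CRE arrays. The medians of the cytosol and nucleus, the ER and the mitochondrion are lowest in CRE array 2, and that of TRiC/CCT in CRE array 1.

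Among members lower by sign, CRE array 2 was most often the lowest CRE array. Of the 44 members lower by sign, it was the lowest CRE array in 31, CRE array 1 in 12 and CRE array 3 in 1. For the ER members the median deviation was -0.099 in CRE array 2, but -0.0063 and 0.013 in CRE arrays 1 and 3. For the cytosolic and nuclear members it was -0.084 in CRE array 2, and -0.0021 and -0.018 in the other two. Over all members tested, CRE array 2 lay below every ERT array in 43 of 66, CRE array 1 in 32 and CRE array 3 in 29. These counts were not made over all genes, so whether they are particular to the members was not tested. Across all genes tested the median deviation was 0.037, 0.0042 and 0.014 in CRE arrays 1, 2 and 3, also lowest in CRE array 2.

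Members outside these compartments, with roles at vesicles, endosomes, cilia and membranes or with a place not assigned here, were mostly higher by sign. Of 10 tested, 1 was called higher (Dnajc6), 1 lower (Dnajc27) and 8 did not pass. The share called was 20%, against 7.62% of all genes tested. Without overlap 3 were higher (30%) and 1 lower (10%), against 20.7% and 17.7% of all genes tested. By sign 20% were lower, against 43.4% of all genes tested. The median level of these members was 8.81. In the dimmest of 4 bins of level and the next, 12.1% and 34.6% of all genes were lower by sign. Dnajc13, which encodes the endosomal protein RME-8, had values of 12.49, 12.44 and 12.67 in the ERT arrays and 12.85, 12.76 and 12.76 in the CRE arrays. Its difference of 0.26 ± 0.067 (SE) was without overlap and did not pass (adjusted p = 0.0542). It was measured by 15 probe sets, of which 14 were higher and 1 lower, with a median difference of 0.12 and a range from -0.10 to 0.26; the one used, the brightest, gave the largest. Dnajc5 (0.037), the cysteine string protein of secretory vesicles, was higher without overlap by a small amount. Dnajc22 had 0.24, Hspa12b 0.11, Dnajc4 0.065, Dnajb13 0.036, Dnajc28 0.028 and Dnajc25 -0.053, all with overlapping groups. The median of 0.051 turned to -0.051 after median centring.

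The size and sign of the differences went along with the level. Genes tested were divided by mean level into 4 bins of equal size. In the dimmest bin, up to a log2 value of 8.19, the median difference over all genes was 0.12, and over the 5 members there 0.11. In the next bin they were 0.064 over all genes and 0.055 over 14 members. In the third bin they were -0.056 over all genes and -0.093 over 15 members, and in the brightest bin -0.022 over all genes and -0.090 over 32 members. In the brightest bin 26 of 32 members were lower by sign, and 59.3% of all genes were. Spearman's rho between level and difference was -0.32 across the 66 members and -0.43 across all genes tested, a description over genes that share the same 6 arrays. The part of this drift in the differences of the members was not tested.

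**Figure D4:**
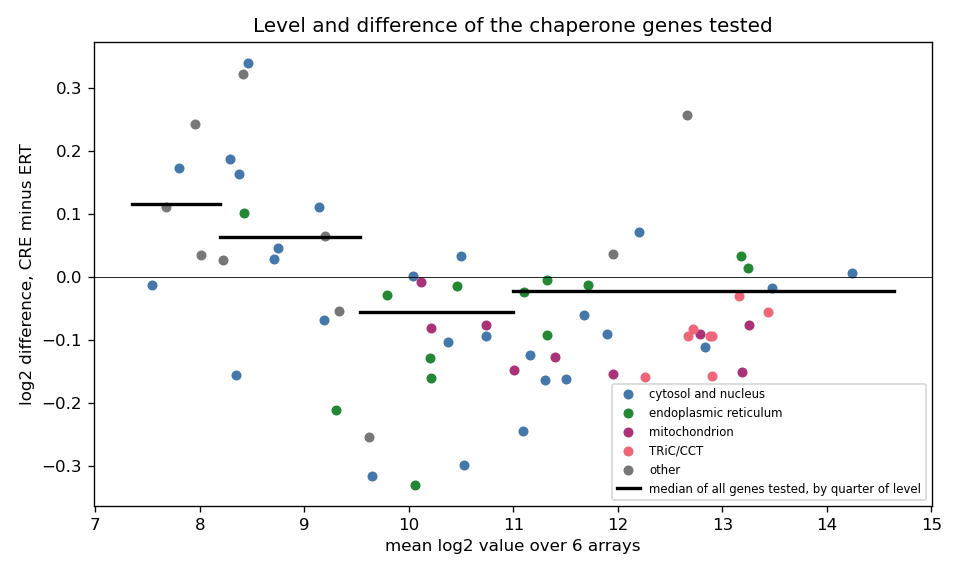
Difference between CRE and ERT arrays (y axis, log2) against the mean log2 value over all 6 arrays (x axis) for the 66 chaperone genes tested, coloured by compartment. Black lines mark the median of all genes tested in each of 4 bins of level, which falls from 0.12 to -0.056 and then lies at -0.022; the TRiC/CCT members lie below the line of the brightest bin.

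Partners of these chaperones outside the families were called about as often as genes in general, but were more often lower by sign. Of 81 tested genes on 5 lists, 1 was called higher, 4 lower and 76 did not pass, so 6.17% were called, against 7.62% of all genes tested. By sign 60 were lower (74.1%) and 21 higher, where 43.4% of all genes tested were lower. Without overlap 27 were lower (33.3%) and 10 higher (12.3%), against 17.7% and 20.7%. The median level of these partners was 11.04, against 9.54 over all genes tested. In the third and the brightest of 4 bins of level, 67.4% and 59.3% of all genes were lower by sign. Lower without overlap in these bins were 29.7% and 26.5%. The part of level in the shares of the partners was not tested. At an unadjusted p under 0.05, 29 were lower and 5 higher, where 14.4% and 19% of all genes tested were. Ppid, which encodes the HSP90-bound prolyl isomerase cyclophilin 40, was called among 27 HSP70 and HSP90 co-chaperones, with values of 11.55, 11.62 and 11.56 in the ERT arrays and 11.34, 11.26 and 11.37 in the CRE arrays. It fell by 0.25 ± 0.048 (SE, adjusted p = 0.0261). Pfdn5, a subunit of prefoldin, which hands actin and tubulin to TRiC, was called among 9 prefoldin and TRiC partners and fell by 0.31 ± 0.068 (adjusted p = 0.0375). These 9 genes were all lower by sign, with a median of -0.11. Lonp1, the matrix protease, was called among 11 genes of mitochondrial folding and quality control and fell by 0.30 ± 0.061 (adjusted p = 0.0315); the median of that list was -0.15. Ppid, Pfdn5 and Lonp1 each kept the call in only 1 fit of the 6 that omit an array, that without CRE array 3. In that fit 3 partners were called higher and 15 lower, and 20.3% of all genes tested were called.

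Among 14 small heat shock proteins and heat shock regulators, 1 was called higher and 1 lower (14.3%), against 7.62% of all genes tested. By sign 10 were higher and 4 lower (28.6%), where 43.4% of all genes tested were lower. Without overlap 5 were higher (35.7%) and 1 lower (7.14%), against 20.7% and 17.7% of all genes tested. The list was dim, with a median level of 8.40. In the dimmest of 4 bins of level and the next, 12.1% and 34.6% of all genes were lower by sign. Lower without overlap in these bins were 1.85% and 12.9%. The median of 0.097 turned to -0.0050 after quantile normalization and -0.0018 after loess. Hspb8, a small heat shock protein that works with BAG3, had values of 10.97, 11.12 and 10.88 in the ERT arrays and 11.44, 11.27 and 11.40 in the CRE arrays. It rose by 0.38 ± 0.073 (SE, adjusted p = 0.0255). Hsf2, a heat shock factor, had values of 9.86, 9.96 and 9.83 in the ERT arrays and 9.59, 9.44 and 9.67 in the CRE arrays, and fell by 0.32 ± 0.067 (adjusted p = 0.0343). Omitting arrays in turn, Hspb8 kept its call in 3 fits of 6 and Hsf2 in 1. Of 20 ER folding genes, limma called 0. At an unadjusted p under 0.05, 1 was higher and 6 lower, where 19% and 14.4% of all genes tested were. The median over these 20 genes was -0.017, turning to 0.0021 after loess.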

How the data were processed

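Expression was measured on 6 Affymetrix arrays of mouse cells, 3 CRE and 3 ERT, grouped by their titles. The authors deposited log2 values for 35556 probe sets; the submitters' processing notes list RMA and Partek 6.5, with no role or settings. Of these probe sets, 21789 carried 1 gene symbol in the array's annotation table, 1621 several and 12146 were not named. The probe set with the highest mean stood for a gene (19938 genes), and the 4985 genes with a mean under the 25th percentile (7.35) were left out, which left 14953.

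CRE minus ERT was fitted gene by gene in R 4.3.3 with lmFit and default eBayes of limma 3.58.1 (two-sided, no covariate). Adjusted p-values are Benjamini-Hochberg values across the 14953 genes, called under 0.05. The procedure was tested on simulated data. Intervals are 95% intervals of the moderated fit. Precision is limited by the 3 arrays per group. No genome build is named for the array values; promoter sequences are RefSeq's (GRCm38.p6).

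Members, compartments and lists were chosen with earlier results of these data known; compartments are from general knowledge. Named genes were the members called, the 10 largest differences each way and a core set of 32 symbols, of which 29 are members; further members are given for completeness, chosen after their values were seen. Symbols of 2 list genes were updated (Ero1a, Ero1b). Genes of the rule or lists with no single-symbol probe set were not analysed here. Alternatives varied the filter, probe sets, scaling, model and arrays. Python 3.11.15, pandas 2.3.3 and matplotlib 3.10.9 prepared tables and figures.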

Additional observations from a re-analysis of the deposited data

How the results depend on the processing

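With 3 arrays per group and small differences, the counts moved with the processing. For members called, 1 higher and 4 lower became 0 higher and 0 lower with the replicate number as a block, 2 higher and 18 lower after median centring, which moved the median over all genes from 0.026 to -0.077, 3 and 12 with eBayes trend and robust estimation, 3 and 12 with array weights, and 2 and 4 after quantile normalization and after loess; 1 was called lower without the filter on dim genes and 0 were at a threshold of 0.01. With an array left out, 0 to 3 members were higher and 0 to 7 lower, and 40 to 1696 genes in all were higher and 76 to 1346 lower. Over all genes, 523 higher and 617 lower became 187 and 250 without the filter, 223 and 2797 after centring, 849 and 1298 with trend and robust estimation, 2273 and 1720 with array weights, 47 and 100 with the replicate block, 52 and 91 at 0.01, and 1011 lower with the filter at the 50th percentile. For the partner lists, 1 higher and 4 lower became 0 and 0 with the replicate block and at 0.01; 0 were lower without the filter, 10 with the stricter filter, 34 after centring, 14 with trend and robust estimation and 22 (with 3 higher) under array weights, and with an array left out 0 to 3 were higher and 0 to 15 lower.

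Median differences of the compartments moved with centring, to -0.16 for all members, -0.14 for cytosol and nucleus, -0.13 for the ER, -0.19 for mitochondria, -0.20 for TRiC and -0.051 for the remaining members. Without the filter the median of all members was -0.029 and that of the remaining members 0.088; with the stricter filter those of all members and of cytosol and nucleus were -0.082 and -0.080. The remaining members had 0.019 after quantile normalization, 0.024 after loess and 0.090 with array weights; with an array left out they ranged from 0.045 to 0.086. Signs turned for members near 0: Dnaja1 (-0.057 as the mean of both probe sets, -0.030 after centring), Dnajb14 (-0.0009), Hsp90b1 (-0.069), Hspa5 (-0.088) and Hspa8 (-0.096) after centring, Dnajc3 (0.0002), Hsp90aa1 (0.0007) and Hspa8 (-0.012) after quantile normalization, Dnajc3 (0.018) and Hspa8 (-0.0035) after loess, and Hspa8 between -0.016 and 0.018 with an array left out. Replicate numbers did not pair the arrays: deviations of same-numbered arrays correlated at 0.069, -0.17 and -0.40, and not every array correlated best with its own number. The cause of these changes was not tested.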
